A study of Mus musculus with 6 samples.

Results

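The peroxisome proliferator-activated receptors (PPARs) Ppara and Ppard and 6 genes of fatty acid handling, Cpt1a, Acadm, Ehhadh, Pdk4, Angptl4 and Plin2, were followed in mouse intestinal crypt stem cells with and without overexpression of the circular RNA circEZH2_005. The 8 genes form a list set by name, and all were listed among the 28752 genes of the deposited table and passed the filter on low counts, which kept 18348 genes. RNA sequencing of poly(A)-selected RNA was performed on 3 vector and 3 circEZH2_005 samples. Every sample came from Lgr5+ intestinal stem cells of Lgr5-GFP mice (genotype labelled WT), grown in IntestiCult medium into crypt-villus organoids. The labels describe infection with circEZH2_005 adenovirus for 72 h and then hypoxia/reoxygenation (H/R), with organoids kept for 4 h at 37 °C in 5% CO2, 2% O2 and 93% N2. The vector samples went through H/R too, so no sample without H/R was compared, and the length of the reoxygenation is not given in the sources used here. Nothing in the labels says that the 3 samples of a group came from separate animals or cultures, and p-values therefore measure the spread between these samples. The circular RNA has no row of its own in a table of genes, and its level was not analysed here.

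PPARs are nuclear receptors that are switched on by fatty acids and their derivatives. They bind DNA as partners of retinoid X receptors, at repeats of a short half-site with a single base between them, and raise transcription of genes that take up, transport, burn and store fatty acids. In the intestine, PPAR delta is widely expressed and is active in crypts, whereas PPAR alpha is known for its role in the absorptive cells of the villus. Long-chain fatty acids enter mitochondria through carnitine palmitoyltransferases and are shortened there by beta-oxidation, while a parallel pathway runs in peroxisomes.

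The 6 libraries held between 71506487 and 79919893 counted reads. Marker genes set some libraries apart. The summed level of 14 leukocyte genes was 90.7 to 259 CPM (read counts divided by library size after scaling by the trimmed mean of M-values, TMM) in the vector samples, highest in sample 2, and 349 to 614 CPM in the circEZH2_005 samples, highest in sample 1, and none of the 14 genes was at 0 in all libraries. Of these leukocyte genes, 7 were higher without overlap (16.4% of all genes tested were) and 0 were called (3.67% of all genes were). All 7 crypt stem cell markers were detected, and their sum was 2034 to 2883 CPM in vector and 1390 to 2022 CPM in circEZH2_005 samples. Lgr5 was at 12.1 to 18.3 CPM in vector and 7.70 to 9.10 CPM in circEZH2_005 samples. In edgeR, 2 of the 7, Lgr5 and Smoc2, were lower at an adjusted p-value under 0.05, against 0.986% of all genes. Log2 fold changes of the 7 ran from -0.88 to 0.32, with a median of -0.58. The sum of 12 enterocyte markers was 21266 to 23354 CPM in vector samples and 20221, 38323 and 27921 CPM in circEZH2_005 samples 1, 2 and 3, so transcripts of absorptive cells were abundant in libraries labelled as stem cells. The sum of 6 epithelial markers was 7139 to 7575 against 8647 to 10806 CPM. In any library, 6 fibroblast markers summed to at most 11.1 CPM and 4 adipocyte markers to at most 1.23 CPM. The sum of 4 endothelial markers was 0.635 to 1.58 CPM in vector and 2.65 to 5.55 CPM in circEZH2_005 samples, without overlap. The 1 endothelial marker tested was called as higher (log2 fold change 1.93), against 2.69% of all genes. These shifts moved with the groups, and their part in the results below was not tested. In such bulk samples, fewer cells of a type and less RNA per cell cannot be told apart.

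None of the 8 genes passed an adjusted p-value of 0.05 between circEZH2_005 and vector samples. Ppard, Cpt1a and Plin2 had higher values in every circEZH2_005 sample than in any vector sample, by 1.24-fold, 1.45-fold and 1.22-fold, and Angptl4 had lower values in every circEZH2_005 sample, with a vector level 1.82 times that of circEZH2_005. The remaining 4 genes, Ppara, Acadm, Ehhadh and Pdk4, overlapped between the groups. Thus, 0 of 8 genes were called by edgeR with Benjamini-Hochberg adjustment over all genes tested, whereas 3.67% of all 18348 genes were called, 2.69% as higher and 0.986% as lower. An unadjusted p-value under 0.05 was reached by 4 of 8 genes, against 23.7% of all genes. A lack of overlap between the groups was found for 3 genes as higher and 1 as lower, which is 4 of 8, against 16.4% of all genes as higher, 14.2% as lower and 30.6% in either direction. A rule built on the study's own fold threshold (p-value under 0.05 and a fold beyond 2 in either direction) took 0 of 8 genes and 7.56% of all genes. The median log2 fold change was 0.17 over the 8 genes and 2.15e-05 over all genes tested.

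**Figure D1:**
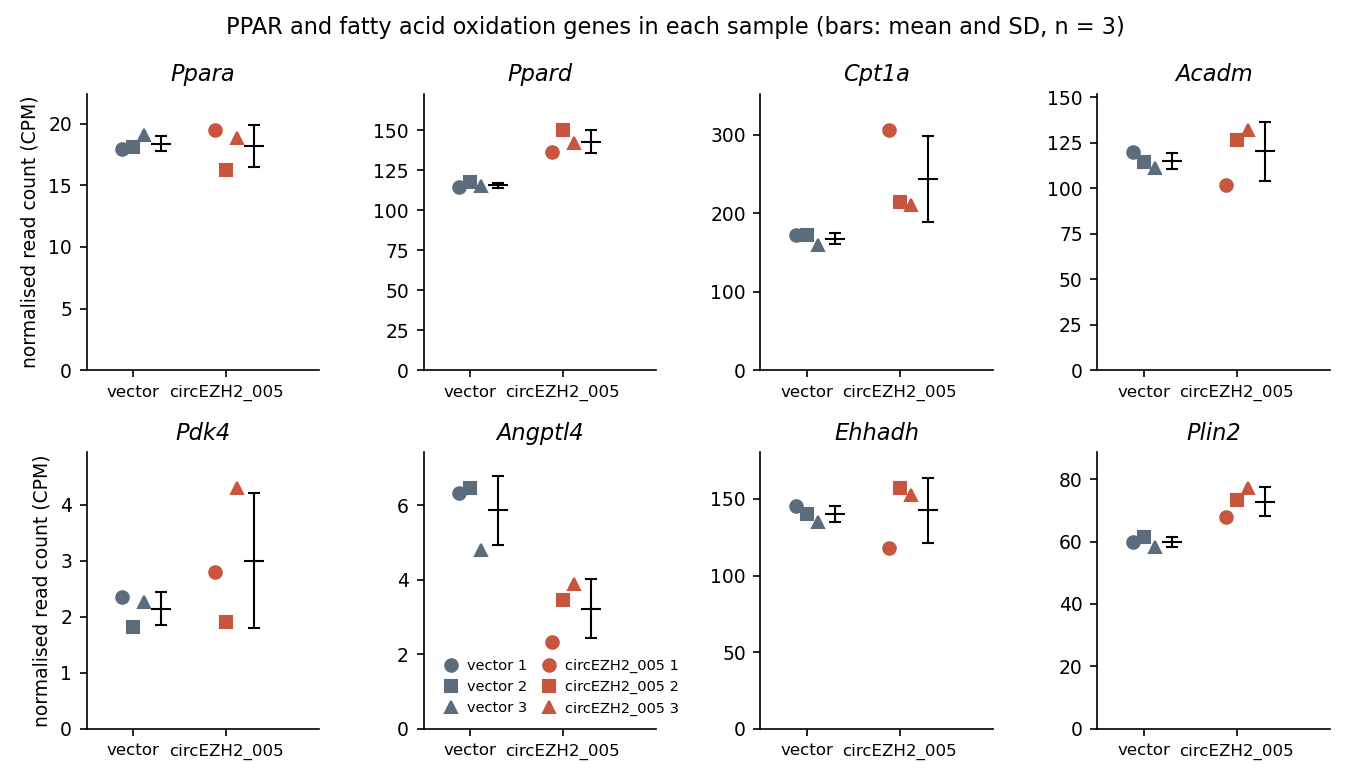
Normalised read count (CPM, linear axis from 0) of each gene in the 3 vector and 3 circEZH2_005 samples, with the mean and SD of each group beside the points. The groups are separate for Ppard, Cpt1a, Plin2 and Angptl4 and overlap for Ppara, Acadm, Ehhadh and Pdk4.

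DESeq2, run as an alternative to edgeR, called 2289 of all genes (674 in edgeR) and 3 of the 8 genes. No other alternative called any of the 8. The 3 were Ppard (log2 fold change 0.30, adjusted p = 0.0219 in DESeq2) and Cpt1a (0.54, adjusted p = 0.0102) as higher and Angptl4 (-0.86, adjusted p = 0.0112) as lower. Over all alternatives the adjusted p-values ran from 0.0219 to 0.222 for Ppard, from 0.0102 to 0.348 for Cpt1a and from 0.0112 to 0.231 for Angptl4. Vector sample 2 and circEZH2_005 sample 1 were the libraries with the most leukocyte transcripts of their groups. With both left out (chosen after seeing the data), edgeR called 0 of the 8 genes and 1923 of all genes. The edgeR adjusted p-values were then 0.0506 for Ppard, 0.0515 for Plin2, 0.0571 for Cpt1a and 0.155 for Angptl4.

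PPARs bind a direct repeat of the half-site AGGTCA with 1 base between the copies (DR1, AGGTCANAGGTCA, where N is any base). This element was searched on both strands in the RefSeq promoter windows, which run from 250 bases before to 50 bases after a RefSeq start site (GRCm38.p6). That site can differ from the gene start given below, as for Cpt1a (window chr19:3323051-3323350, gene from 3322334). Of the 8 genes, 7 had a window (not Angptl4). The stretch nearest to the element is shown for the 3 enzyme or coat genes whose windows hold an intact half-site, as the sequence data that go with the values below. Capitals mark the 2 half-site positions of the motif, and only 1 of them (TGACCT) is intact in each line. Each line reads 5′ to 3′ along the gene's strand, and the elements lie in reverse complement (TGACCTNTGACCT).
Plin2, chr4:86670260-86670296, minus strand: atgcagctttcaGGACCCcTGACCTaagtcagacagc
Acadm, chr3:153944868-153944893, minus strand: gTGACCTtCGGGCTccggtgacactg
Cpt1a, chr19:3323195-3323231, plus strand: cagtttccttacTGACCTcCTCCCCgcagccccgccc
The Plin2 element began 225 bases before the start and differed from the 12 fixed letters of the motif at 2 positions, and 3.86% of 32851 windows held a stretch with at most 2 mismatches. The Acadm stretch had 3 mismatches and was 1 of 3 equally good stretches in that window, and 24.6% of windows reached 3 mismatches. The Cpt1a stretch had 4 mismatches and was 1 of 2 equally good stretches, a distance reached by 79.8% of windows. The best stretches had 4 mismatches in Ppara, Pdk4 and Ehhadh and 5 in Ppard. The half-site alone was found in 3 of the 7 windows and in 16.3% of all windows. A match describes letters and does not show that a receptor binds there.

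Ppard encodes PPAR delta (ENSMUSG00000002250, chr17:28232700-28301474, plus strand, mm10 as in the deposited table). Its normalised read count was 114, 117 and 115 CPM in vector samples 1, 2 and 3, and 136, 150 and 142 CPM in circEZH2_005 samples 1, 2 and 3. All circEZH2_005 samples were above all vector samples, and the vector samples lay close together. The mean was 115.6 ± 1.68 CPM (SD, n = 3) in vector and 142.8 ± 7.18 CPM (SD, n = 3) in circEZH2_005 samples. edgeR gave a log2 fold change of 0.31 (SE 0.08, 95% interval 0.13 to 0.48), with an edgeR adjusted p-value of 0.0652. On the log2(FPKM + 1) scale (FPKM, the deposited level per transcript length and library size) the log2 difference was 0.20.

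Ppara, which encodes PPAR alpha (ENSMUSG00000022383, chr15:85734983-85802819, plus strand), was at 18.0, 18.1 and 19.0 CPM in vector samples and at 19.5, 16.2 and 18.8 CPM in circEZH2_005 samples. The highest and the lowest value were both found among circEZH2_005 samples, so the groups overlapped. The fitted log2 difference was -0.01 (SE 0.11, 95% interval -0.27 to 0.24, edgeR adjusted p = 0.956). The interval covers shifts of either sign, and 3 samples per group leave the sign undecided.

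Cpt1a encodes the carnitine palmitoyltransferase of the outer mitochondrial membrane, the rate-limiting step of long-chain fatty acid entry (ENSMUSG00000024900, chr19:3322334-3385733, plus strand). Its level was 172, 172 and 159 CPM in vector samples and 307, 214 and 210 CPM in circEZH2_005 samples. Every circEZH2_005 sample was above every vector sample, and sample 1 stood far above the other two. The means were 167.9 ± 7.37 and 243.9 ± 54.5 CPM (SD, n = 3 each). The log2 fold change was 0.54 (SE 0.15, 95% interval 0.19 to 0.89, edgeR adjusted p = 0.0856). Without circEZH2_005 sample 1 it was 0.34 (edgeR adjusted p = 0.0744), and the same library had the highest leukocyte sum and the lowest enterocyte sum of all libraries.

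Acadm, the medium-chain acyl-CoA dehydrogenase of mitochondrial beta-oxidation (ENSMUSG00000062908, chr3:153922357-153944632, minus strand), was at 120, 114 and 111 CPM in vector samples and at 102, 127 and 132 CPM in circEZH2_005 samples. The circEZH2_005 samples lay on both sides of the vector samples, with sample 1 lowest. A log2 fold change of 0.06 was fitted (SE 0.11, 95% interval -0.19 to 0.32, edgeR adjusted p = 0.783), and its sign changed with the scaling (-0.01 with library size only, -0.03 on log2(FPKM + 1)).

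Ehhadh, the bifunctional enzyme of peroxisomal beta-oxidation (ENSMUSG00000022853, chr16:21761287-21787807, minus strand), was at 145, 140 and 135 CPM in vector samples and at 118, 157 and 153 CPM in circEZH2_005 samples. Sample 1 was again the lowest of all libraries, whereas the other two circEZH2_005 samples exceeded every vector sample. Its log2 fold change was 0.03 (SE 0.12, 95% interval -0.25 to 0.30, edgeR adjusted p = 0.917), with a changed sign under library size only (-0.04), upper-quartile scaling (-0.02) and log2(FPKM + 1) (-0.07). A small nuclear RNA gene, Gm24898, overlaps Ehhadh on the opposite strand and had a mean of 1.17 counts per library.

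Pdk4 encodes a kinase that shuts off pyruvate dehydrogenase, which spares glucose when fatty acids are burnt (ENSMUSG00000019577, chr6:5483351-5496309, minus strand). It was weakly expressed, at 171, 136 and 177 reads or 2.36, 1.82 and 2.26 CPM in vector samples, and at 223, 142 and 308 reads or 2.80, 1.91 and 4.30 CPM in circEZH2_005 samples. The groups overlapped, and circEZH2_005 sample 3 held the highest value. The log2 fold change was 0.48 (SE 0.32, 95% interval -0.25 to 1.22, edgeR adjusted p = 0.404), and it was 0.13 without circEZH2_005 sample 3 and 0.15 on the log2(FPKM + 1) scale.

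Angptl4 encodes a secreted inhibitor of lipoprotein lipase and is a well-known target gene of PPARs and of hypoxia signalling (ENSMUSG00000002289, chr17:33773750-33781830, minus strand). It was at 459, 483 and 375 reads or 6.34, 6.46 and 4.79 CPM in vector samples, and at 186, 257 and 279 reads or 2.34, 3.45 and 3.89 CPM in circEZH2_005 samples. Every circEZH2_005 sample was below every vector sample, with sample 1 the lowest. The means were 5.87 ± 0.932 and 3.23 ± 0.801 CPM (SD, n = 3 each). The log2 fold change was -0.86 (SE 0.24, 95% interval -1.42 to -0.30, edgeR adjusted p = 0.0836), and it was -0.50 on the log2(FPKM + 1) scale, which compresses low genes.

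Of 12 hypoxia target genes, all tested, edgeR called 1 as higher and 1 as lower, against 2.69% and 0.986% of all genes. Unadjusted edgeR p-values under 0.05 were found for 4 as higher and 2 as lower, against 23.7% of all genes in either direction. The sum of the list was 2706 to 2948 CPM in vector and 2496 to 2992 CPM in circEZH2_005 samples. The gene called as higher was Ankrd37 (log2 fold change 1.50, edgeR adjusted p = 0.0254), and the gene called as lower was Ndrg1 (-1.63, adjusted p = 0.0207).

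Plin2 encodes perilipin 2, a coat protein of lipid droplets (ENSMUSG00000028494, chr4:86648386-86670060, minus strand). Its level was 59.7, 61.5 and 58.4 CPM in vector samples and 67.8, 73.3 and 77.1 CPM in circEZH2_005 samples. The groups did not overlap. The means were 59.9 ± 1.54 and 72.7 ± 4.68 CPM (SD, n = 3 each). The log2 fold change was 0.28 (SE 0.08, 95% interval 0.10 to 0.46, edgeR adjusted p = 0.0833), and it was 0.18 on the log2(FPKM + 1) scale.

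**Figure D2:**
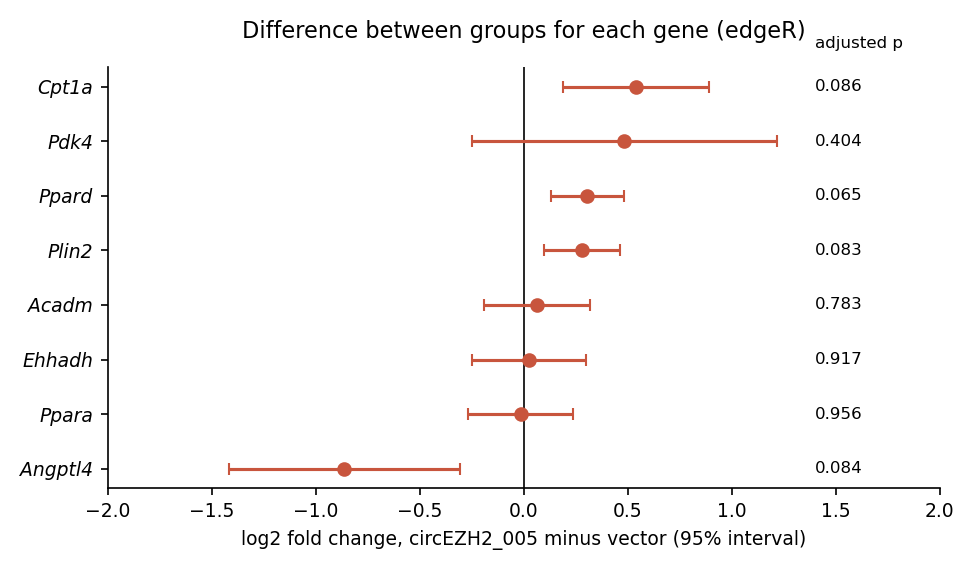
Log2 fold change of each gene, circEZH2_005 minus vector, with its 95% interval from the edgeR fit and the adjusted p-value at the right. The intervals of Ppard, Cpt1a and Plin2 lie above 0 and that of Angptl4 below 0, and no adjusted p-value is under 0.05.

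The samples did not keep 1 order across the 8 genes. circEZH2_005 sample 1 had the highest Cpt1a and Ppara and the lowest Acadm, Ehhadh and Angptl4 of all libraries, sample 2 had the highest Ppard and Ehhadh and the lowest Ppara, and sample 3 had the highest Acadm, Pdk4 and Plin2. Leaving out circEZH2_005 sample 1 gave edgeR log2 fold changes of 0.17 for Acadm and 0.14 for Ehhadh, with adjusted p-values of 0.265 and 0.327.

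Per transcript length, Ehhadh was the most abundant of the 8 genes and Pdk4 the least. Mean FPKM over the 6 samples was 42.4 for Ehhadh, 26.9 for Acadm, 24.2 for Cpt1a, 16.9 for Plin2, 15.4 for Ppard, 4.28 for Ppara, 1.16 for Angptl4 and 0.651 for Pdk4. In the vector samples no 2 neighbours in this order overlapped. In the circEZH2_005 samples the ranges of Acadm (24.3 to 28.6 FPKM) and Cpt1a (23.3 to 37.4 FPKM) overlapped, as did those of Angptl4 (0.610 to 0.930 FPKM) and Pdk4 (0.451 to 1.03 FPKM), so these neighbours did not differ beyond their spread there. Of the 2 receptors, Ppard thus had the higher FPKM in every sample.

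**Figure D3:**
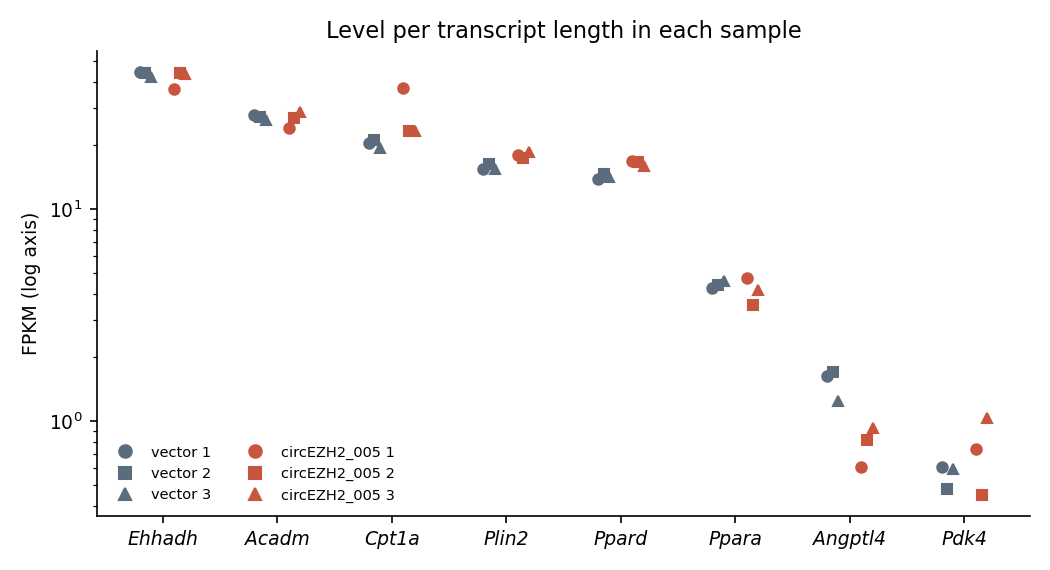
FPKM of each gene in each sample on a log axis, in order of the mean over the 6 samples. Ehhadh lies at 37.0 to 44.4 FPKM and Pdk4 at 0.451 to 1.03 FPKM, and Angptl4 and Pdk4 overlap in the circEZH2_005 samples.

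To ask whether a gene moved apart from a gene of related function, the log2 ratio of their FPKM values was formed within each sample, which does not depend on library scaling. Of 6 ratios, 3 had no overlap between the groups, and no share over ratios of other genes was formed. Of single genes tested, 30.6% had no overlap in either direction. The ratio of Ppard to Ppara was 1.70, 1.73 and 1.63 with vector and 1.83, 2.24 and 1.95 with circEZH2_005, a difference of 0.32. All circEZH2_005 samples lay above the vector samples. The two-sided exact permutation test gave p = 0.1, the smallest value that 3 against 3 samples allow, and 0.2 after adjustment over the 6 ratios. Without circEZH2_005 sample 2 the difference was 0.20.

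The ratio of Acadm to Acadl, the long-chain acyl-CoA dehydrogenase, was -2.03, -1.79 and -2.01 with vector and -1.77, -1.39 and -0.99 with circEZH2_005 (difference 0.56, exact permutation p = 0.1, adjusted 0.2), and the difference was 0.36 without circEZH2_005 sample 3. Acadl itself was at 251, 202 and 229 CPM in vector samples and at 178, 170 and 134 CPM in circEZH2_005 samples (log2 fold change -0.50, edgeR adjusted p = 0.0745). The ratio of Plin2 to Plin3, another droplet coat protein, was -1.57, -1.58 and -1.60 with vector and -1.68, -2.08 and -1.73 with circEZH2_005 (difference -0.25, exact permutation p = 0.1, adjusted 0.2), and the difference was -0.12 without circEZH2_005 sample 2. Plin3, like Plin2, had higher values in circEZH2_005 samples, at a log2 difference of 0.54 (edgeR adjusted p = 0.0605).

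The other 3 ratios overlapped between the groups. Cpt1a to Cpt2, the carnitine palmitoyltransferase of the inner membrane, differed by 0.21 (exact permutation p = 0.5), and by 0.002 without circEZH2_005 sample 1. Pdk4 to Pdk2 differed by 0.18 (exact permutation p = 0.8), with 0.66 without circEZH2_005 sample 2 and -0.12 without circEZH2_005 sample 1, and Ehhadh to Hsd17b4, the other bifunctional enzyme of peroxisomes, by -0.04 (exact permutation p = 0.9). Cpt2 had a log2 fold change of 0.30 (edgeR adjusted p = 0.0723), Pdk2 of 0.30 (adjusted p = 0.492) and Hsd17b4 of 0.07 (adjusted p = 0.813).

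**Figure D4:**
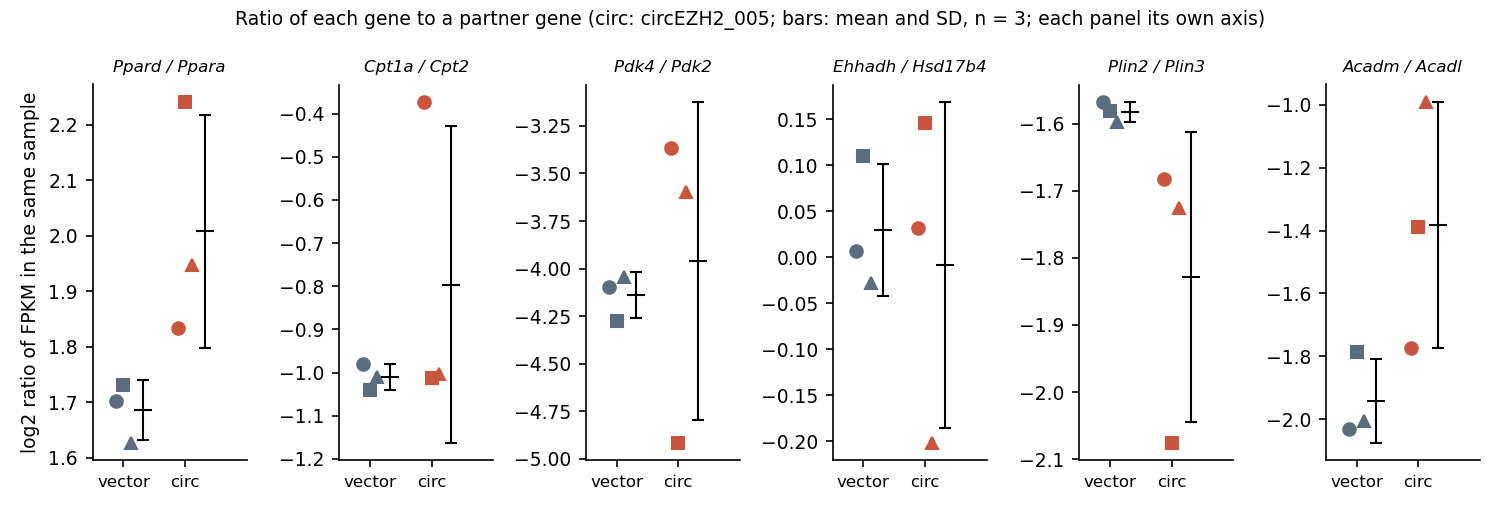
Log2 ratio of the FPKM of each gene to that of a partner gene in the same sample, with the mean and SD of each group of 3 and a separate axis for each panel. The groups are apart for Ppard to Ppara, Plin2 to Plin3 and Acadm to Acadl.

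Among the 18348 genes tested, those whose profile over the 6 samples was most like that of Ppard and Plin2, the genes with the smallest p-values of the 8, were identified by the root mean square difference of centred log2 CPM. Nearest to Ppard were Rbck1 (0.0193) and Tbrg1 (0.0212), and nearest to Plin2 were Fkbp1a (0.0255) and Smagp (0.0265). For comparison, the root mean square of the centred profile itself was 0.158 for Ppard and 0.151 for Plin2. These likenesses describe 6 samples in 2 groups.

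Around the 8 genes, 11 lists of PPAR partners, fatty acid enzymes and related genes held 141 genes, of which 130 were tested. Of these, 4 were called as higher and 1 as lower by edgeR, or 3.85% against 3.67% of all genes. The called share thus lay close to the background, and the median log2 fold change was 0.13. An unadjusted edgeR p-value under 0.05 was found for 35.4% of the 130 genes, against 23.7% of all genes. No overlap in either direction was found for 38.5%, against 30.6% of all genes. The called genes were Cidec, Lipe, Apoc3 and Pdk3 as higher and Acaa2 as lower. The count changed with single libraries, and so did the count over all genes, which was 674 with all samples. The pathway count was 0 without vector sample 1 (28 of all genes) or without circEZH2_005 sample 2 (68). It was 1 without vector sample 3 (33) and 4 without circEZH2_005 sample 3 (169). It was 9 without vector sample 2 (1432) and 17 without circEZH2_005 sample 1 (681). With vector sample 2 and circEZH2_005 sample 1 both left out (chosen after seeing the data), it was 29 (1923).

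**Figure D5:**
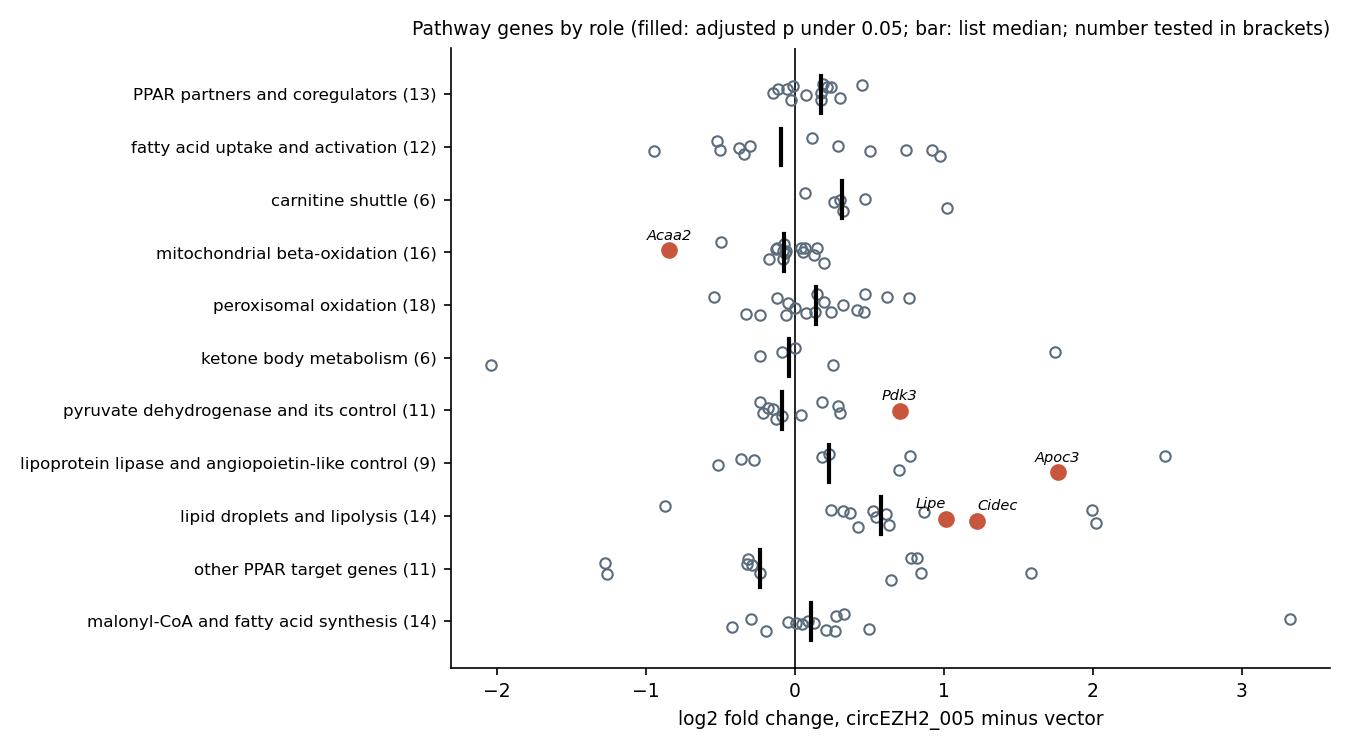
Log2 fold change, circEZH2_005 minus vector, of each tested gene in the 11 lists, with filled points for an adjusted p-value under 0.05 in edgeR and a bar at each list's median. The filled points are Acaa2 at -0.84, Pdk3 at 0.70, Lipe at 1.01, Cidec at 1.22 and Apoc3 at 1.76.

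Genes of lipid droplets and lipolysis held 2 of the 5 called genes. Of 14 tested, 2 were called as higher and 0 as lower, 8 were higher and 1 lower without overlap, and the median log2 fold change was 0.58. Over all genes tested, 3.67% were called, and 16.4% were higher and 14.2% lower without overlap. Cidec, which promotes the fusion and growth of lipid droplets, rose from 19.7, 20.3 and 15.8 CPM to 36.5, 47.1 and 47.0 CPM (log2 fold change 1.22, edgeR adjusted p = 0.013). Its edgeR adjusted p-value was 0.0659 without vector sample 1, 0.0689 without vector sample 3 and 0.0599 without circEZH2_005 sample 2. Lipe, the hormone-sensitive lipase, rose from 40.7, 42.8 and 39.9 CPM to 62.2, 101 and 85.3 CPM (log2 fold change 1.01, edgeR adjusted p = 0.0279). For Lipe the edgeR call was lost without vector sample 1 (adjusted p = 0.122), vector sample 3 (0.129), circEZH2_005 sample 2 (0.0803) or circEZH2_005 sample 3 (0.0714). Fat cells express both genes strongly, and the 4 adipocyte markers summed to 0.0691, 0 and 1.07 CPM in vector and to 1.23, 0.994 and 0.963 CPM in circEZH2_005 samples. Of these markers 2 were tested, Adipoq and Cfd, with log2 fold changes of 0.84 and 2.08, the latter without overlap, and neither was called. The 12 enterocyte markers had a median log2 fold change of 0.61, with 1 called. They summed to 21266 to 23354 CPM in vector samples and to 20221, 38323 and 27921 CPM in circEZH2_005 samples 1, 2 and 3. The part of fat cells or of enterocytes in the rise of Cidec and Lipe was not tested. At the ends of the list, Hilpda, an inhibitor of lipolysis, had a log2 fold change of -0.88 (edgeR adjusted p = 0.0777). Cidea was at 0, 0 and 0.268 CPM in vector and 0.428, 0.309 and 0.377 CPM in circEZH2_005 samples (edgeR adjusted p = 0.403).

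Genes that control lipoprotein lipase, the enzyme that Angptl4 inhibits, included 1 called gene of 9 tested, against 3.67% of all genes. Their median log2 fold change was 0.23. Apoc3, a lipoprotein component that slows triglyceride clearance, rose from 43.3, 66.4 and 41.3 CPM to 137, 194 and 182 CPM (log2 fold change 1.76, edgeR adjusted p = 0.0138). Without vector sample 1, vector sample 3 or circEZH2_005 sample 2 the edgeR adjusted p-value was 0.0772, 0.0841 and 0.063. Apoc3 is also made by enterocytes, whose markers had a median log2 fold change of 0.61, with 1 of 12 called. The extremes were Angptl2, at 0, 0.214 and 0.102 CPM against 1.02, 0.470 and 0.307 CPM (edgeR adjusted p = 0.189), and Angptl6, at -0.52 on the log2 scale (adjusted p = 0.648).

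Among 16 genes of mitochondrial beta-oxidation, the pathway of Acadm, 1 was called as lower (0.986% of all genes) and 0 as higher (2.69%). The median log2 fold change of the list was -0.07. Acaa2, the mitochondrial thiolase that performs the last step of a round, fell from 147, 109 and 123 CPM to 68.1, 56.4 and 86.4 CPM (log2 fold change -0.84, edgeR adjusted p = 0.0464). The groups did not overlap, but the call was lost in 8 of 16 alternatives, with adjusted p-values from 7.28e-05 (DESeq2) to 0.16. Among them were the edgeR fits without vector sample 1 (adjusted p = 0.16) or 3 (0.158) and without circEZH2_005 sample 1 (0.0811), 2 (0.136) or 3 (0.052). Hadhb, a subunit of the trifunctional protein, had the highest log2 fold change of the list, 0.20 (edgeR adjusted p = 0.197).

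Of 11 genes of pyruvate dehydrogenase and its control, the complex that Pdk4 inhibits, 1 was called as higher (2.69% of all genes were). The median log2 fold change of the 11 was -0.09. Pdk3, a kinase of the same family as Pdk4, rose from 25.3, 28.1 and 27.2 CPM to 43.4, 49.1 and 38.8 CPM (log2 fold change 0.70, edgeR adjusted p = 0.0231). This edgeR call was lost without vector sample 1 (adjusted p = 0.114), vector sample 3 (0.122) or circEZH2_005 sample 2 (0.0752). Pdha1, a catalytic subunit of the complex, had a log2 fold change of -0.24 (edgeR adjusted p = 0.127).

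None of the 13 tested PPAR partners and coregulators was called, against 3.67% of all genes, and their median log2 fold change was 0.17. The third receptor of the family, Pparg, was at 8.59, 7.31 and 7.96 CPM in vector and 10.2, 10.2 and 12.3 CPM in circEZH2_005 samples, without overlap (log2 fold change 0.45, edgeR adjusted p = 0.112). An unadjusted edgeR p-value under 0.05 was found for 5 of the 13 genes, against 23.7% of all genes.

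In the carnitine shuttle, which Cpt1a opens, 3 of 6 tested genes had an unadjusted edgeR p-value under 0.05, against 23.7% of all genes. The shuttle also had 0 of the 6 genes called, against 3.67% of all genes, and a median log2 fold change of 0.31. Its values ran from 0.06 for Crat, the carnitine acetyltransferase, to 1.02 for Cpt1b, the muscle form of Cpt1 (edgeR adjusted p = 0.86 and 0.401). Cpt1b was at 1.62, 1.57 and 3.18 CPM in vector and 0.868, 6.49 and 5.55 CPM in circEZH2_005 samples, so the groups overlapped.

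In peroxisomal oxidation, the pathway of Ehhadh, 0 of 18 tested genes were called, against 3.67% of all genes. The median log2 fold change of the list was 0.14. An unadjusted edgeR p-value under 0.05 was found for 5 of the 18, against 23.7% of all genes. The extremes were Abcd2, a transporter of very long-chain fatty acids, with 0.77 (edgeR adjusted p = 0.516) and Pecr, a peroxisomal reductase, with -0.54 (adjusted p = 0.116). Genes of fatty acid uptake and activation had 0 of 12 called (3.67% of all genes were) and a median of -0.09. Of the 12, 7 had an unadjusted edgeR p-value under 0.05, against 23.7% of all genes. Fabp2, the intestinal fatty acid-binding protein, was at the upper end with 0.98 (edgeR adjusted p = 0.0622), and Acsl6, an acyl-CoA synthetase, at the lower end with -0.95 (adjusted p = 0.146). 

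Of 6 genes of ketone body metabolism, 0 were called, against 3.67% of all genes, and the median log2 fold change was -0.04. Unadjusted edgeR p-values under 0.05 were found for 3 of the 6, against 23.7% of all genes. Bdh2 was at the upper end with 1.75 (edgeR adjusted p = 0.0819) and at most 0.672 CPM in any library.

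Of 11 other PPAR target genes tested, 0 were called, against 3.67% of all genes, and the median log2 fold change was -0.24. Unadjusted edgeR p-values under 0.05 were found for 4 of the 11, against 23.7% of all genes. Fabp4, a fatty acid-binding protein of fat cells, macrophages and endothelium, was at 0.0691 and 0.107 CPM in vector samples 1 and 2, while vector sample 3 lay within the range of the circEZH2_005 samples, which were at 2.04, 1.75 and 2.48 CPM (edgeR adjusted p = 0.408). Cyp4a10, an omega-hydroxylase of fatty acids, was lowest, with a log2 fold change of -1.27 (edgeR adjusted p = 0.337). Finally, 0 of 14 genes of malonyl-CoA and fatty acid synthesis were called (3.67% of all genes were), with a median of 0.11. Of the 14, 3 had an unadjusted edgeR p-value under 0.05, against 23.7% of all genes. Mlxipl, which encodes a glucose-responsive activator of fat synthesis, was at the lower end with -0.42 (edgeR adjusted p = 0.228). Thrsp was at the upper end, at 0, 0.0669 and 0.0511 CPM in vector and 0.541, 0.161 and 0.530 CPM in circEZH2_005 samples (edgeR adjusted p = 0.0961).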

How the data were processed

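RNA sequencing was compared between 3 vector and 3 circEZH2_005 samples, grouped by their labels; columns named NC were read as vector, since no other control exists. The authors deposited unnormalized read counts per gene and FPKM values per gene and sample in 1 table, and 0 sample columns were left unused. The submitters' processing notes name cutadapt 1.9, HISAT2 2.0.4, StringTie 1.3.4d and DESeq2 and the build mm10, without saying what each did, and strandedness is not given in the sources used here. GENCODE M21 listed 28678 of the 28752 gene identifiers, 28527 of them at an identical start.

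Counts were filtered with filterByExpr, scaled with TMM and tested in edgeR 4.0.16 (R 4.3.3) by quasi-likelihood, without covariate, with Benjamini-Hochberg adjustment over 18348 genes. A call is an adjusted p-value under 0.05. Standard errors were derived from the F statistic. DESeq2 1.42.0, limma 3.58.1 on log2(FPKM + 1) of genes reaching a mean FPKM of 0.5, other scalings and filters, a replicate block and each sample left out were alternatives. Named genes were the 8 members, the genes called and the extremes of each list, partner genes and nearest profiles (some genes that this rule names are not reported here); the hypoxia and cell type markers named beside them were chosen after their values were seen. The members and lists were chosen with earlier results of these data known. With 71506487 to 79919893 reads per library, a floor of 3 counts is 0.0375 to 0.0420 CPM, which covers counting error only. The scripts were tested on simulated data.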

Additional observations from a re-analysis of the deposited data

How the results depend on the processing

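Over 16 alternatives for each of the 8 genes, 110 of 128 log2 fold changes kept their direction and their side of the threshold, 3 passed it (DESeq2) and 15 changed sign, all of Ppara, Acadm or Ehhadh. DESeq2 called 3 of the 8 genes and 24 pathway genes (2289 of all genes, against 674 in edgeR). Limma without a filter called 0 pathway genes (20 of all genes), edgeR without a filter 3 (169) and the fold rule 8 (1388). The fit without vector sample 2 and circEZH2_005 sample 1 (chosen after seeing the data) called 29 (1923). Leaving out 1 sample gave 0 of the 8 genes, 0 to 17 pathway genes and 28 to 1432 of all genes. Over all genes, edgeR called 493 as higher and 181 as lower, and limma on log2(FPKM + 1) 371 and 364, with the median of all genes at -0.07 there. The cause was not tested.

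Signs that changed were those of values near 0, except for the ratio of Pdk4 to Pdk2. That ratio differed by 0.18 with all samples and changed sign without circEZH2_005 sample 1 or 3. With library size only, Acadm was at -0.0059, Ehhadh at -0.043 and Crat at -0.0099, and with upper-quartile scaling Ehhadh was at -0.018. On log2(FPKM + 1), with and without a filter, Acadm was at -0.032, Hsd17b4 at -0.032, Ehhadh at -0.069 and Crat at -0.042, and on log2(FPKM + 0.1) Acadm was at -0.033, Hsd17b4 at -0.033, Ehhadh at -0.071 and Crat at -0.045. With 1 sample left out, values ran from -0.069 to 0.060 for Ppara, -0.012 to 0.17 for Acadm, -0.047 to 0.14 for Ehhadh, -0.047 to 0.23 for Crat and -0.092 to 0.21 for Hsd17b4, and the ratios from -0.12 to 0.66 for Pdk4 to Pdk2 and -0.11 to 0.059 for Ehhadh to Hsd17b4.

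With the replicate number as a block, edgeR called 0 of the 8 genes and 4 pathway genes (Acaa2 and Pdk3 were lost, with adjusted p-values of 0.0541 and 0.051), and 277 genes in all against 674. The deviations of samples with the same number had correlations of -0.14, -0.02 and 0.04, and those with different numbers of -0.13 to 0.15. Deviations from a mean of 3 samples cancel within each group. These values therefore cannot decide whether samples with the same number share a culture or an animal. Of the 8 genes, Pdk4 and Angptl4 had the fewest reads, and the lowest count in any library was 136 reads (Pdk4). The part of depth in their spread was not tested.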
